A study of Mus musculus with 6 samples.

Results

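The genes described here carry proteins into, through and out of the endoplasmic reticulum (ER), the compartment in which a secretory cell makes the proteins it exports. They were taken from a list of 52 genes in 5 steps, namely stress sensors and transcription factors, translocation, folding, N-glycosylation and transport vesicles. Each gene was read from 1 probe set, the single-gene one with the highest mean log2 value over all arrays. On the arrays 51 of the 52 had such a probe set, out of 18193 genes in all; Sec61g was not analysed here. RNA came from whole mammary glands of 3 Elf5 KO mice and 3 wild-type mice, hybridised to 1 array each. Elf5 is a transcription factor of the ETS family that luminal epithelial cells express. The sample labels place all 6 glands at pregnancy day 17, while lactation day 1 is named in the design text of the series. The sources used here give neither strain nor age, nor how Elf5 was disrupted and in which cells. The titles name the arrays of a group as biological replicates. The question is how glands in which Elf5 was disrupted differ in their transcripts.

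A protein bound for secretion is recognised by the signal recognition particle as it leaves the ribosome and is threaded through the Sec61 channel into the ER. There its signal peptide is cut off, sugar chains are attached by oligosaccharyltransferase, and chaperones and disulphide isomerases help it fold. COPII-coated vesicles then carry it to the Golgi, and COPI-coated vesicles bring escaped ER residents back. When unfolded protein builds up, the sensors Ire1 (Ern1), Perk (Eif2ak3) and Atf6 start the unfolded protein response, which raises the capacity of the ER and slows translation. Alveolar cells of the gland enlarge this machinery before milk secretion, and Xbp1 is known as one of its main drivers in secretory cells.

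The targeted gene read 5616, 4361 and 3128 in Elf5 KO arrays 1, 2 and 3, against 12011, 8044 and 7244 in wild-type arrays 1, 2 and 3, where the values are the authors' linear signals. All KO signals of Elf5 were below all wild-type signals (limma adjusted p = 0.109, and 0.0151 with replicate numbers as blocks), but they were far from 0, and whether the probes lie in the disrupted part was not analysed here. RNA quality was uneven: the Gapdh control probe sets gave a 3'/5' ratio of 0.802, 3.89 and 13.65 in the KO arrays, against 1.09, 0.833 and 0.876 in wild type (exact permutation p = 0.4, two-sided, where 3 against 3 arrays give no p under 0.1). The Actb control probe sets gave 3'/5' ratios of 1.5779, 1.8667 and 20.996 in the KO arrays (exact permutation p = 0.5). In wild-type arrays 1, 2 and 3 they gave 2.0431, 1.1965 and 1.8381. By Actb, KO array 2 lay within the wild-type range and KO array 3 far above it. KO array 1 and the 3 wild-type arrays, all with a Gapdh ratio under 2, are called the low-ratio arrays below. KO array 2 is left out of them on the Gapdh ratio alone. The low-ratio arrays hold 1 KO array, so values over them have no spread between KO mice. Summed markers of several other cell types were higher in every KO array. The summed signal of 12 fibroblast markers was 25200 to 39871 in the KO arrays and 12883 to 20266 in wild type, with 4 of them called higher by limma. That of 10 measured macrophage markers was 12233 to 20707 in the KO arrays and 6544 to 10045 in wild type, and that of 9 measured plasma cell markers 14182 to 20280 in the KO arrays and 5886 to 13410 in wild type. Adipocyte markers summed to 34780 to 49903 in the KO arrays and 30153 to 30576 in wild type, and lymphocyte markers to 1501 to 3425 in the KO arrays and 703 to 1027 in wild type. Sums of myoepithelial markers (10234 to 14989 in the KO arrays and 13066 to 17650 in wild type) and of endothelial markers (1345 to 2186 in the KO arrays and 1372 to 1692 in wild type) overlapped between the genotypes. The sum over 11 luminal epithelial markers, Elf5 among them, was 21607 to 25599 in the KO arrays and 26706 to 30556 in wild type. This sum includes the Elf5 signals given above, so its separation cannot be read as that of the other markers. Of the 11, 8 had a lower mean and 3 a higher one (Krt8, Krt18 and Cdh1), with a median difference of -0.11. By gene, 11 of 12 fibroblast, 7 of 8 adipocyte, 7 of 8 lymphocyte, 8 of 10 macrophage and 6 of 7 tested plasma cell markers had a higher mean in the KO, and the plasma cell genes Tnfrsf17 and Prdm1 were below the filter on dim genes. Fibroblasts and plasma cells also secrete protein and use the secretory pathway, and the part of these cells in the results was not tested. In a whole gland, fewer cells of a type and less RNA per cell cannot be told apart.

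Secretory pathway signals were mostly lower in the Elf5 KO gland, but no single gene passed the test over all genes. Differences are Elf5 KO minus wild type on the scale of log2(signal + 16), with the moderated standard error (SE) of limma and n = 3 arrays per group. Of the 51 genes, 50 passed the filter on dim genes; Tmed2, a cargo receptor, did not, with signals of 6.5, 5 and 16.2 in KO arrays and 4.4, 1.3 and 20.2 in wild type. The mean was lower for 41 of the 50 and higher for 9, where 46.1% of all 10916 genes tested had a lower mean and 53.9% a higher one. The median difference of the 50 was -0.42, against 0.06 over all genes tested. All 3 KO signals lay below all 3 wild-type signals for 17 of the 50, and above them for 1; the shares over all genes tested were 10.6% and 16.7%. Between arrays of the same number, 22 of the 50 were lower in the KO in all 3 pairs and 5 were higher in all 3, against 23.6% and 30.7% of all genes. With limma, 0 of the 50 passed an adjusted p of 0.05 in either direction, where 0.110% of all genes passed downward and 1.13% upward. At an unadjusted p under 0.05, 14 were lower and 1 was higher, with background shares of 8.48% and 13.4%.

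With replicate numbers fitted as blocks (the paired fit), limma called 6 of the 50, all lower: Xbp1, Creb3l1, Ssr2, Ssr4, P4hb and Sec23b. That fit called 4.53% of all genes downward and 7.70% upward. Without KO array 1, limma called 5 of the 50, all lower, namely Creb3l1, Ssr2, Ssr4, P4hb and Dad1, against 5.07% of all genes called downward and 5.98% upward; the remaining KO arrays are those with Gapdh ratios of 3.89 and 13.65. The median difference of the 50 over the low-ratio arrays was -0.27, against 0.04 over all genes. The size of the shift differed between the KO arrays. Set against the wild-type mean of each gene, the median of the 50 was -0.27, -0.33 and -0.59 in KO arrays 1, 2 and 3, and -0.05, 0.09 and -0.06 in wild-type arrays 1, 2 and 3. Over all genes tested the same medians lay between 0.04 and 0.12 in the KO arrays.

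**Figure D1:**
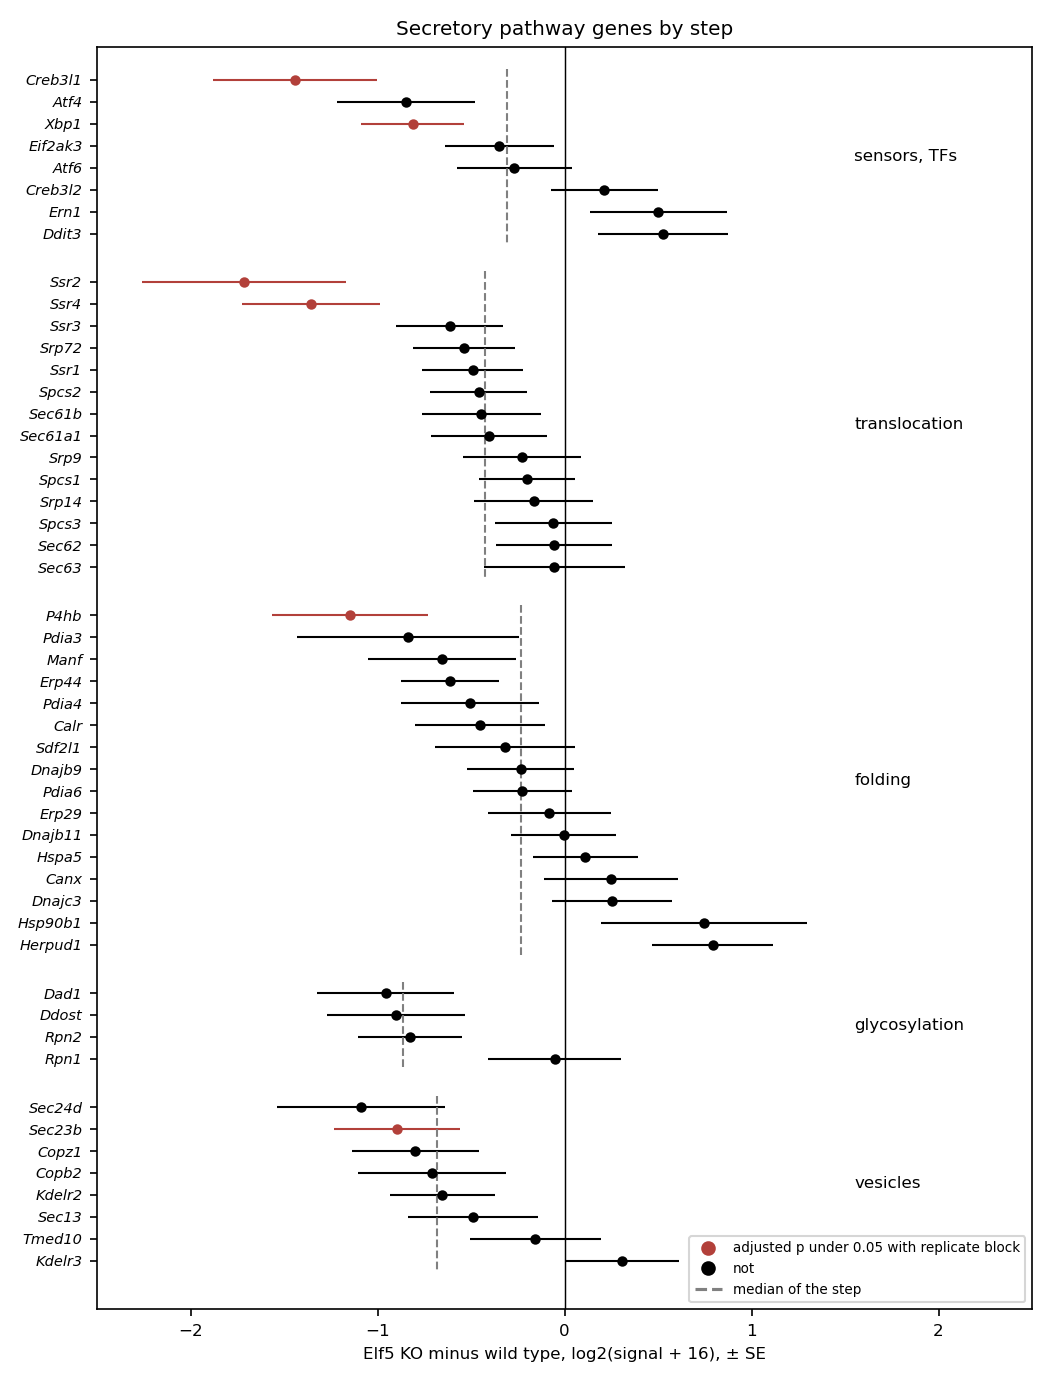
Difference of each of 50 secretory pathway genes, Elf5 KO minus wild type on the log2(signal + 16) scale (points) with its SE (bars), grouped by step; dashed lines are the medians of the steps, and red points passed in the paired fit. All 14 translocation genes and all 4 glycosylation genes lie left of 0, while folding genes spread from -1.15 for P4hb to 0.79 for Herpud1.

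Among sensors and transcription factors, Xbp1 and Creb3l1 were lower in every KO array than in every wild-type array, and the groups overlapped for the other 6 genes. Xbp1, which is activated by splicing of its mRNA through Ire1, read 7126, 5355 and 5271 in KO arrays, against 12597, 10220 and 8503 in wild type. All KO signals lay below all wild-type signals, with a difference of -0.81 ± 0.27 (SE; limma adjusted p = 0.139, and 0.0222 in the paired fit). The array signal does not tell spliced from unspliced mRNA. Creb3l1, a membrane-bound factor that is cleaved on its way to the Golgi and drives genes of matrix and secretory cargo export, read 190, 150 and 58.5 in KO arrays and 313, 550.0 and 257 in wild type. Its groups did not overlap either, and KO array 3 was the lowest (difference -1.44 ± 0.44 (SE), limma adjusted p = 0.110, and 0.0261 in the paired fit; -0.85 in the low-ratio arrays). Atf4, which Perk induces through translation and which activates amino acid supply and redox genes, read 1479, 1193 and 723 in KO arrays and 1340, 2238 and 2535 in wild type. KO array 1 lay above wild-type array 1, so the groups overlapped (-0.85 ± 0.37 (SE), limma adjusted p = 0.216). On a second probe set Atf4 differed by 0.04, and KO array 3 was the highest of the 6.

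Ddit3, the pro-death factor Chop of prolonged ER stress, was not lower: it read 130, 208 and 187 in KO arrays and 71, 128 and 162 in wild type, with overlapping groups (0.53 ± 0.35 (SE), limma adjusted p = 0.391). The sensor Ern1 read 173, 364 and 427 in KO arrays and 173, 231 and 226 in wild type. KO arrays 2 and 3 were above wild type and KO array 1 was not, so its difference was 0.50 ± 0.37 (SE) over all arrays and -0.24 in the low-ratio arrays. A second, dim probe set of Ern1 had the opposite sign, at -0.63. Eif2ak3 and Atf6 differed by -0.35 ± 0.29 and -0.27 ± 0.31, and Creb3l2, a relative of Creb3l1, by 0.21 ± 0.29 (SE). A second probe set of Creb3l2 differed by -0.26. Of the 8 genes of this step, 5 had a lower and 3 a higher mean, and the median was -0.31 (low-ratio arrays -0.41). At an unadjusted p under 0.05, 3 were lower and 0 higher, against 8.48% and 13.4% of all genes tested.

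Translocation genes had a lower mean in the KO in 14 of 14 measured, on the probe sets that stand for the genes. Many differences were near 0. The median of the 14 was -0.42 (-0.31 in the low-ratio arrays) and the range -1.72 to -0.05. Some other probe sets of Spcs1, Sec62, Sec63, Srp9 and Ssr1 were higher, by 0.06 to 0.75, and the remaining ones of this step were lower. Between arrays of the same number, 7 of the 14 were lower in all 3 pairs, against 23.6% of all genes. All KO signals were below all wild-type signals for 6 of the 14, against 10.6% of all genes tested. At an unadjusted p under 0.05, 2 of the 14 were lower, against 8.48% of all genes tested. The translocon-associated protein (TRAP) complex sits beside the Sec61 channel and aids insertion of some signal peptides. Its 4 subunits were among the 6 genes with separate groups, but they were grouped after the values were seen, so this is no test. Ssr4 read 5425, 3420 and 2264 in KO arrays and 12398, 8089 and 7093 in wild type. The KO mean was 40.3% of the wild-type mean, and the highest KO signal was below the lowest wild-type one (difference -1.36 ± 0.37 (SE), limma adjusted p = 0.0881, and 0.0125 in the paired fit). It was -0.72 in the low-ratio arrays and -0.80 with the mean of its probe sets. Ssr2 read 1829, 811 and 292 in KO arrays and 2568, 2343 and 2720 in wild type. The wild-type arrays lay close together and the KO arrays far apart, so its difference of -1.72 ± 0.54 (SE; limma adjusted p = 0.122, and 0.0412 in the paired fit) was -0.47 in the low-ratio arrays.

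Ssr3 read 3780, 2980 and 2249 in KO arrays and 4166, 4788 and 4591 in wild type (-0.61 ± 0.29 (SE), limma adjusted p = 0.242), and Ssr1 differed by -0.49 ± 0.27 (SE). On the probe sets that stand for them, the subunits of the channel lay nearer to 0 than Ssr2, Ssr3 and Ssr4, and close to Ssr1. Sec61a1, which forms the pore, differed by -0.40 ± 0.31 and its partner Sec61b by -0.44 ± 0.32 (SE). In the low-ratio arrays Ssr1 and Ssr3 differed by -0.44 and -0.25, against -0.26 and -0.27 for Sec61a1 and Sec61b. In Sec61a1 and in Sec61b, KO array 2 was the lowest of the 6 and KO array 3 lay within the wild-type range. Other probe sets of Sec61a1 differed by -1.30, -1.17, -3.31, -3.10 and -0.05, so its place beside the TRAP subunits depends on the probe set. Sec62, which assists post-translational import, differed by -0.06 ± 0.31 (SE), and the co-chaperone Sec63 by -0.05 ± 0.38 (SE), with signals of 511, 610 and 1252 in KO arrays and 655, 952 and 705 in wild type. KO array 3 was the highest of the 6 for Sec63 and KO array 1 the lowest, so that its difference was -0.56 in the low-ratio arrays. Other probe sets of Sec63 differed by -1.26, -1.72, 0.29 and 0.22. Signal peptidase subunits Spcs1, Spcs2 and Spcs3 differed by -0.20, -0.46 and -0.06, and the signal recognition particle proteins Srp9, Srp14 and Srp72 by -0.23, -0.17 and -0.54. None of these passed limma's test or the paired fit; among them Spcs2 and Srp72 had non-overlapping groups.

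**Figure D2:**
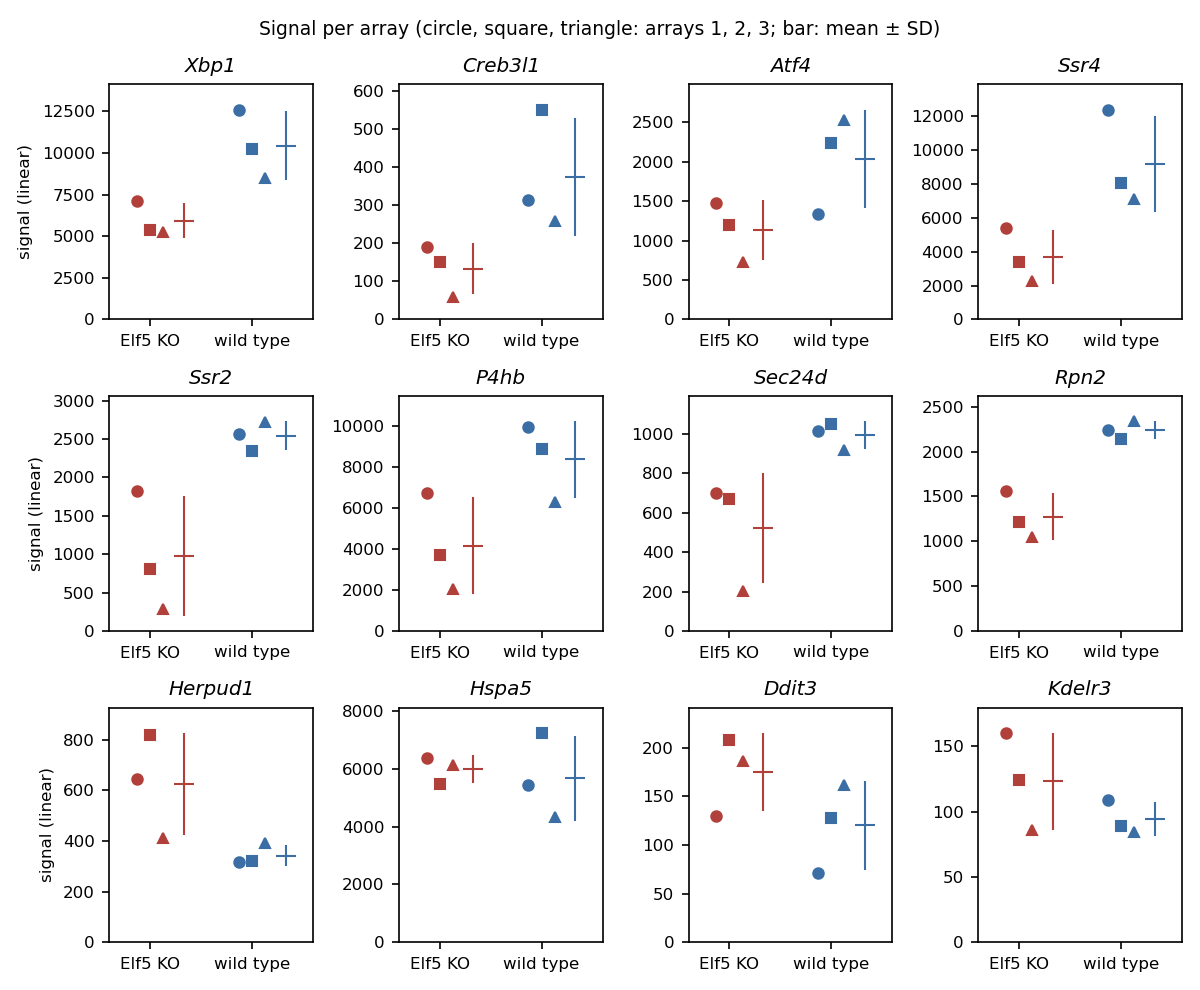
Linear signal of 12 genes in each array, Elf5 KO left of wild type; circles, squares and triangles are arrays 1, 2 and 3 of a group, and bars are mean ± SD over 3 arrays. Xbp1, Creb3l1, Ssr4, Ssr2, Sec24d and Rpn2 are lower in every KO array, Herpud1 is higher in every KO array, and the groups overlap for Atf4, P4hb, Hspa5, Ddit3 and Kdelr3.

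Folding genes were mixed in direction. Of 16 measured, 11 had a lower and 5 a higher mean, and the median was -0.23 (low-ratio arrays -0.15). At an unadjusted p under 0.05, 2 were lower and 1 was higher, against 8.48% and 13.4% of all genes tested. P4hb, the classical protein disulphide isomerase, read 6722, 3700 and 2052 in KO arrays and 9943, 8876 and 6311 in wild type. KO array 1 lay above wild-type array 3, and the difference was -1.15 ± 0.42 (SE; limma adjusted p = 0.162, and 0.0215 in the paired fit) but -0.29 in the low-ratio arrays. Erp44, which retrieves client proteins from the early Golgi, read 1595, 1456 and 1342 in KO arrays and 2369, 2366 and 2009 in wild type. Its groups did not overlap and its 3 KO arrays lay close together (-0.61 ± 0.26 (SE), limma adjusted p = 0.215; -0.49 in the low-ratio arrays). A second, dimmer probe set of Erp44 had overlapping groups, with 125, 149 and 22.0 in KO arrays and 64.7, 194 and 133 in wild type (-0.50).

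Herpud1, an ER membrane protein that recruits the degradation machinery and is strongly induced by ER stress, ran the other way. It read 644, 818 and 414 in KO arrays and 317, 320.2 and 391 in wild type. It was the 1 gene of the 50 with every KO signal above every wild-type signal, by 0.79 ± 0.32 (SE; limma adjusted p = 0.200; paired fit 0.123). Over the low-ratio arrays it was higher by 0.88. Hspa5, the Hsp70 chaperone BiP that is the standard readout of the unfolded protein response, read 6365, 5463 and 6133 in KO arrays and 5420, 7240 and 4314 in wild type. All KO signals lay inside the wild-type range, with a difference of 0.11 ± 0.28 (SE; limma adjusted p = 0.839). Hsp90b1, the ER Hsp90, read 1687, 4285 and 4257 in KO arrays and 916, 4124 and 1703 in wild type, so its difference of 0.75 ± 0.55 (SE) lies within a wide spread. The lectin chaperones Calr and Canx, which hold glycoproteins until they are folded, differed by -0.45 ± 0.35 and 0.25 ± 0.36 (SE).

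Pdia3, the isomerase that works with these lectins, differed by -0.84 ± 0.59 (SE) and rested on 1 array: it read 3229, 3556 and 672 in KO arrays and 2568, 5491 and 3180 in wild type, and its difference without KO array 3 was -0.07. Manf, a secreted stress-induced survival factor, showed the same pattern, with -0.66 ± 0.40 over all arrays and -0.25 without KO array 3. The other isomerases Pdia4 and Pdia6 differed by -0.51 ± 0.37 and -0.23 ± 0.27, and Erp29 by -0.08 ± 0.33 (SE). The co-chaperones of BiP, Dnajb9, Dnajb11 and Dnajc3, differed by -0.23, -0.01 and 0.25, and Sdf2l1 by -0.32. No folding gene passed limma's test over all genes, and P4hb alone passed in the paired fit.

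A promoter element of the unfolded protein response was present in some folding genes. The ER stress response element (ERSE), known as a site of Atf6 with the factor NF-Y, has the letters CCAAT and CCACG with 9 free bases between them. A search of both strands of the 250 bases before the annotated start in RefSeq (build GRCm38.p6) found it in 6 of 43 genes of the list that matched the promoter table, against 0.130% of 27025 genes in that table. All 6 belong to the folding step. That step was listed for ER chaperones, stress-induced ones among them, so these shares describe the list and are no test. A shorter variant, ERSE-II, with the letters ATTGG and CCACG and 1 free base between them, was found in Herpud1 alone among the 43, and in 0.0370% of all genes. The matches are printed with their flanks, 5′ to 3′ on the strand of the gene, so that the element can be read beside the values of the stress-induced chaperones that carry it. Capitals mark the fixed letters of the element, which reads as its reverse complement in Calr and in 1 of the 2 Hsp90b1 sites.
Hspa5 (chr2:34772010-34772058, plus strand): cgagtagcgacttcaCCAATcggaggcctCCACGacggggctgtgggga
Hsp90b1 (chr10:86705623-86705671, minus strand): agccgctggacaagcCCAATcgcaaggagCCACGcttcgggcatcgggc
Hsp90b1 (chr10:86705518-86705566, minus strand): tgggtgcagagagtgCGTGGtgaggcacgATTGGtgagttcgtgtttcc
Canx (chr11:50325785-50325833, minus strand): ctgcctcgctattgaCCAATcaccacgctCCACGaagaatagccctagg
Dnajc3 (chr14:118937812-118937860, plus strand): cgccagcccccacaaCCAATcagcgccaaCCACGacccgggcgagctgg
Pdia6 (chr12:17266476-17266524, plus strand): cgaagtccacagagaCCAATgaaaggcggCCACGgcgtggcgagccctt
Calr (chr8:84847060-84847108, minus strand): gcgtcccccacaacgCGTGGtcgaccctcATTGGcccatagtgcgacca
Herpud1, ERSE-II (chr8:94386362-94386402, plus strand): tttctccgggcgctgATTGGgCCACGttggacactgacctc

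Of the 6 genes with an ERSE, Calr and Pdia6 had a lower mean and Hspa5, Hsp90b1, Canx and Dnajc3 a higher one, with a median difference of 0.18 (-0.09 in the low-ratio arrays). The 8 other folding genes with a matched promoter had a median of -0.41 (low-ratio arrays -0.23), with 7 lower and 1 higher, and the higher one was Herpud1. The higher means rest on the probe sets that stand for the genes: of 9 other probe sets of the 4 higher genes, 8 had a lower mean, among them -1.38 for Hsp90b1 and -0.93 for Canx. With the mean of all probe sets of a gene, all 6 genes with an ERSE were lower, with a median of -0.23, against -0.44 for the 8 others. The difference between these sets was not tested. The core TGACGTGG, associated with Xbp1 and Atf6 binding, was found before Kdelr3 and Sec24d, against 0.603% of all genes in the table. An ETS core, CCGGAAGT, was found before Copb2, Ddit3, Ddost, Erp44, P4hb and Sec13, or 6 of 43, against 3.23% of all genes. That share is over the whole promoter table, with no selection of genes by expression, and the difference was not tested. No gene of the list carried matches of different motifs, and a match of letters is not evidence of binding.

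Glycosylation genes showed the lowest median of the 5 steps over all arrays, -0.86. In the low-ratio arrays their median was -0.31, and the lowest was that of sensors and transcription factors, -0.41. The 4 glycosylation genes encode subunits of oligosaccharyltransferase, the complex that transfers the sugar chain to asparagine. Rpn2 read 1556, 1218 and 1043 in KO arrays and 2236, 2139 and 2338 in wild type. Every KO array was below every wild-type array, with a KO mean of 1273 ± 261 and a wild-type mean of 2238 ± 99.5 (SD, n = 3 each), and a difference of -0.83 ± 0.28 (SE; limma adjusted p = 0.138). Dad1 read 2459, 1696 and 915 in KO arrays and 2904, 3053 and 3198 in wild type (-0.96 ± 0.37 (SE), limma adjusted p = 0.177). Ddost read 1363, 1021 and 518 in KO arrays and 1511, 1858 and 1720 in wild type (-0.90 ± 0.37 (SE), limma adjusted p = 0.200). For both, KO array 1 lay just under the wild-type range and KO array 3 far under it, and their differences in the low-ratio arrays were each -0.31. A second probe set of Dad1 differed by -0.06. Rpn1 did not follow: it read 3397, 2384 and 5291 in KO arrays and 4947, 3238 and 2987 in wild type, so that KO array 3 was the highest of the 6 (-0.05 ± 0.36 (SE)). At an unadjusted p under 0.05, 3 of the 4 were lower, against 8.48% of all genes tested. None of the 4 passed limma's test over all genes or the paired fit.

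Vesicle genes were lower in 7 of 8 measured, and their median was -0.68 (low-ratio arrays -0.23). At an unadjusted p under 0.05, 4 were lower, against 8.48% of all genes tested. Sec23b and Sec24d form the inner layer of the COPII coat, and Sec24d also selects cargo. Sec23b read 2071, 1226 and 1345 in KO arrays and 3894, 2760 and 2088 in wild type. KO array 1 was just under wild-type array 3, so the groups were separate by a narrow margin (-0.90 ± 0.34 (SE), limma adjusted p = 0.170, and 0.0396 in the paired fit; -0.44 in the low-ratio arrays). Sec24d read 701, 670.1 and 202 in KO arrays and 1015, 1054 and 919 in wild type. KO array 3 was far below the others, and the difference of -1.09 ± 0.45 (SE; limma adjusted p = 0.200) was -0.53 without it. Sec13, of the outer COPII layer, differed by -0.49 ± 0.35 (SE) and by -0.04 in the low-ratio arrays.

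Of the COPI coat, Copz1 differed by -0.80 ± 0.34 and Copb2 by -0.71 ± 0.40 (SE), or -0.19 and -0.28 in the low-ratio arrays. A second probe set of Copb2 had the opposite sign, at 0.66, and the median of the vesicle genes was -0.45 with the mean of all probe sets of each gene. Kdelr2, the receptor that returns KDEL-tagged chaperones to the ER, was even across KO arrays on the probe set that stands for it. It read 1889, 2014 and 1817 in KO arrays and 2716, 3862 and 2585 in wild type. The 3 KO arrays were below the 3 wild-type ones (-0.65 ± 0.28 (SE), limma adjusted p = 0.212), and the difference was as large in the low-ratio arrays, at -0.67. On its second probe set the KO arrays were uneven: 456, 328 and 149, against 695, 1366 and 884 in wild type, a difference of -1.68. Kdelr3, the related receptor, read 160, 124 and 85.8 in KO arrays and 109, 89.1 and 84.7 in wild type, with overlapping groups (0.31 ± 0.31 (SE), and 0.68 in the low-ratio arrays). Tmed10, which packs cargo into vesicles with Tmed2, differed by -0.16 ± 0.35 (SE). The difference between the 5 steps was not tested.

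**Figure D3:**
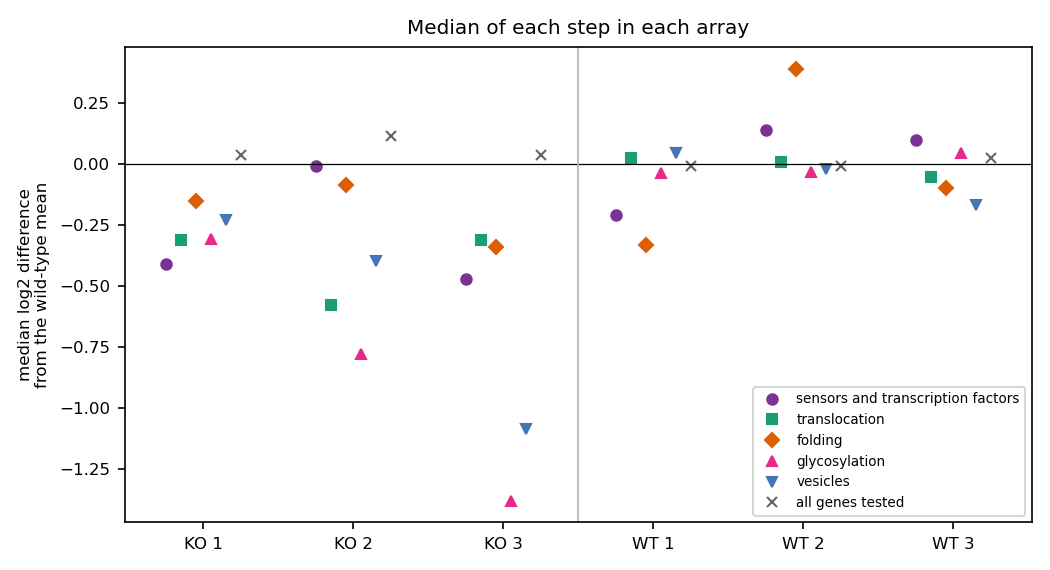
Median over the genes of each step, in each array, of the log2 difference from the wild-type mean of the gene; KO arrays stand left of wild-type arrays. Glycosylation and vesicle genes reach -1.38 and -1.09 in KO array 3, against -0.31 and -0.23 in KO array 1, while all genes tested (crosses) stay between -0.01 and 0.12.

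Several probe sets were available for many of these genes, and they disagreed in KO array 3 more than in any other array. Of the 29 genes with at least 2 probe sets above the filter, 14 were lower on all of them, 0 were higher on all, and 15 had probe sets of both signs. For each gene the range across its probe sets was taken after setting each probe set against its own wild-type mean. The median range over the 29 genes was 0.36, 0.58 and 1.37 in KO arrays 1, 2 and 3 and 0.35, 0.27 and 0.19 in wild-type arrays 1, 2 and 3, on the log2 scale. Over all 5319 genes with several probe sets it was 0.40, 0.71 and 1.53 in the KO arrays and 0.36, 0.32 and 0.31 in wild type. The KO arrays stood in the same order by this range as by their Gapdh ratio. The positions of the probe sets along their transcripts were not analysed here, and the part of RNA quality in these differences was not tested.

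Sec61a1 gave the widest range, 5.86 in KO array 3. The probe set that stands for the gene read 2471, 1559 and 2919 in KO arrays and 3278, 2749 and 2912 in wild type, while another read 925, 36.7 and 24.3 in KO arrays and 1395, 2332 and 568 in wild type. In KO array 3 the first was within the wild-type range and the second far below it. Hsp90b1 read 1587, 2597 and 67.3 in KO arrays on its second probe set, against 1175, 3290 and 1534 in wild type, where KO array 3 had read 4257 on the first. The second probe set of Herpud1 read 570, 451 and 103 in KO arrays and 409, 494 and 519 in wild type, a difference of -0.61, so the higher Herpud1 signal of KO arrays 2 and 3 rests on 1 probe set. In KO array 1 both Herpud1 probe sets were above their wild-type means, by 0.88 and 0.26. Xbp1 was lower on all 4 of its probe sets, by -0.81, -1.94, -1.67 and -0.61, and Calr on all 3, by -0.45, -0.64 and -0.55. In a fit over all 20967 probe sets, limma called 0 in either direction, and 1905 were lower and 1937 higher at an unadjusted p under 0.05. Of the 104 probe sets of the secretory pathway genes, 84 had a lower mean, and 22 were lower and 2 higher at that unadjusted p.

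**Figure D4:**
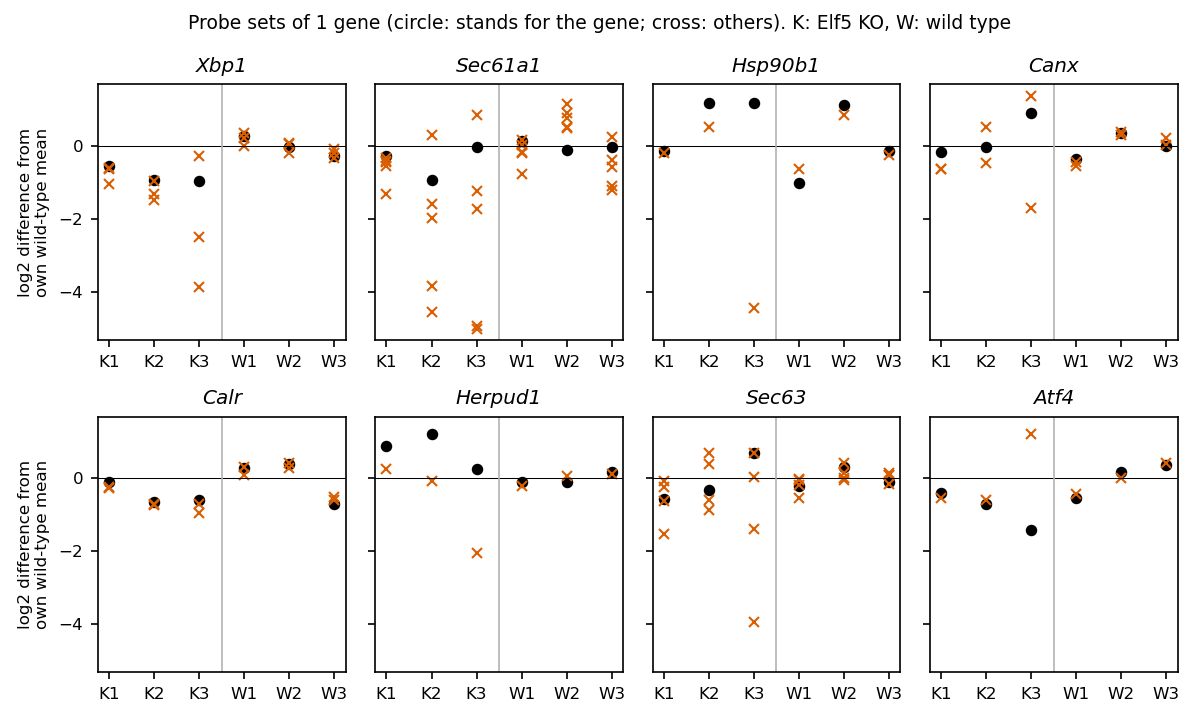
Log2 difference of each probe set above the filter from its own wild-type mean, for 8 genes, in Elf5 KO arrays (K1 to K3) and wild-type arrays (W1 to W3); circles stand for the gene and crosses are its other probe sets. The probe sets of a gene lie farthest apart in K3 for all 8 genes, by 5.86 for Sec61a1 and by 0.34 for Calr.

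Other genes of the pathway, from 6 further lists, gave 129 genes tested, of which 91 had a lower and 38 a higher mean, and their median was -0.25 (low-ratio arrays -0.16). All KO signals were below all wild-type signals for 33 and above them for 10, where the shares over all genes were 10.6% and 16.7%. With limma, 1 passed, downward: Arfgap3, a GTPase-activating protein of the COPI cycle. It read 527, 617 and 380 in KO arrays and 1462, 1537 and 1528 in wild type. Arfgap3 fell by 1.57 ± 0.29 on the log2 scale (SE; limma adjusted p = 0.0446), and its difference was -1.49 in the low-ratio arrays. That call did not hold with every setting: its adjusted p was 0.0884 with the mean of both its probe sets, 0.0615 with no filter, and 0.0222 to 0.217 with 1 array left out, passing only without KO array 1. The paired fit called 10 of the 129 lower and 5 higher, beside shares of 4.53% and 7.70% over all genes. Its lower calls included both subunits of the receptor of the signal recognition particle, Srpr (-0.95 ± 0.34 (SE)) and Srprb (-1.24 ± 0.35), and the cargo receptor Surf4 (-1.28 ± 0.33). They also included Sec16b, which helps to organise ER exit sites (-1.21 ± 0.40), Edem2, a mannosidase that marks glycoproteins for degradation (-2.10 ± 0.55), the recognition particle gene Srp54b (-1.06 ± 0.30) and the coat recruiter Arf1 (-0.93). In the low-ratio arrays Srpr, Srprb, Surf4, Sec16b, Edem2 and Srp54b differed by -0.42, -0.82, -0.78, -0.81, -0.90 and -0.84. The higher calls were Fkbp7, Fkbp9, Tmx4 (1.25), Cnpy4 (1.08) and Tusc3, an oligosaccharyltransferase subunit that was higher in every KO array (1.01 ± 0.30, and 0.84 in the low-ratio arrays). Genes with the smallest p of their lists that neither fit called were Creb3, a relative of Creb3l1 (-0.76 ± 0.32), Dpagt1, which starts the lipid-linked sugar chain (-0.999 ± 0.35), and the oligosaccharyltransferase subunit Tmem258 (-0.63 ± 0.32). The degradation genes Ube2j2 and Derl2 differed by -0.73 ± 0.30 and -1.01 ± 0.44.

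Prolyl isomerases of the ER lay on both sides. Fkbp11 read 3180, 1283 and 1385 in KO arrays and 6366, 5021 and 4249 in wild type (-1.52 ± 0.38 (SE), limma adjusted p = 0.0762, and 0.0134 in the paired fit; -0.69 in the low-ratio arrays). Fkbp7 read 499, 386 and 291 in KO arrays and 111, 144 and 167 in wild type (1.37 ± 0.31 (SE), limma adjusted p = 0.0627, and 0.0299 in the paired fit). Fkbp9 read 1666, 1458 and 4359 in KO arrays and 528, 448 and 650.1 in wild type (limma adjusted p = 0.0572, and 0.0125 in the paired fit). Fkbp11 was lower in every KO array than in every wild-type array, and Fkbp7 and Fkbp9 were higher in every KO array, by 1.73 and 1.61 in the low-ratio arrays. Fibroblast markers were higher in the same arrays, with a median difference of 1.21 over 12 markers, and their part in the Fkbp7 and Fkbp9 values was not tested. Among stress-response genes, the Atf4 targets Chac1, which degrades glutathione, and Trib3, a pseudokinase, differed by -1.19 ± 0.36 and -0.89 ± 0.34 (SE), with groups that did not overlap. The paired fit called Chac1 (adjusted p = 0.0411) but not Trib3 (adjusted p = 0.0886). Of 16 stress-response genes tested, 10 were lower and 6 higher, and the median was -0.39 (low-ratio arrays -0.19). The list of degradation genes was lower in 13 of 16, and the further coat and cargo genes in 29 of 38. The further folding genes were lower in 16 of 29, with a median of -0.02. The further translocation genes were lower in 12 of 17 and higher in 5, with a median of -0.16 (low-ratio arrays -0.08). The further oligosaccharyltransferase list was lower in 11 of 13, with a median of -0.33 (low-ratio arrays -0.33).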

How the data were processed

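Total RNA of whole mammary glands was labelled with biotin and hybridised to Affymetrix arrays, per the labels' protocols. The deposited table gives linear signal intensities for 45101 probe sets. MAS5 and affy are named in the submitters' processing notes as the authors' tools, without versions or order. The mean trimmed by 2% at each end was 150 in every array, so the arrays had been scaled. Probe sets were named through GEO's platform annotation (34945 with 1 gene), checked against RefSeq through Entrez numbers. The filter on dim genes dropped 7277 genes whose mean log2(signal + 16) was below the 40th percentile and kept 10916. The test was that of limma 3.58.1 (R 4.3.3; lmFit, eBayes with an intensity trend) and Benjamini-Hochberg adjustment over all genes. In simulated data for this comparison (10916 genes), it recovered 45% of 100 genes with a log2 change of 2 and 0% of 100 with a change of 1. The number of arrays limits the precision.

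Same-numbered arrays deviated together from their group means (correlations over genes of 0.46, 0.34 and 0.29; the highest between different numbers was 0.15). The numbers come from the titles, which do not state a pairing of animals; results of the paired fit stand beside those whose call it changes. The genes, lists and tests were chosen with earlier results of these data known. Array values were given for the 3 genes of each step with the smallest p, those with the highest and lowest difference, and Xbp1, Creb3l1, Atf4, Ddit3 and Hspa5, and the rule named the 3 other pathway genes with the smallest p in each list. Of these, array values are printed for Arfgap3, Fkbp7, Fkbp9 and Fkbp11 and differences for the others. Further array values, and other genes named from the paired fit's calls, were chosen after they were seen. The alternatives tried are given at the end.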

Additional observations from a re-analysis of the deposited data

How the results depend on the processing

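Call counts, the medians of the 50 genes and of the steps, and the differences of 20 of these genes were recomputed under 18 alternatives, 1 of them, the choice of a gene's probe set by the mean of linear signals, added after seeing the data. Recomputing the other pathway counts, 12 other pathway genes and the ERSE medians was also decided after seeing the data. Marker sums and probe set ranges were not recomputed. The number of genes limma called, 135, was 1335 with the replicate block, 85 with a pseudocount of 1, 56 with no filter, 81 after quantile normalization, 13 after median scaling and 69 with the mean of all probe sets of a gene. It was 0 with the Gapdh ratio as a covariate (252 lower and 860 higher at an unadjusted p under 0.05) and 0 over the low-ratio arrays (216 lower and 797 higher). Leaving out 1 array gave 0 to 1206 calls, the highest without KO array 1. The secretory pathway genes called lower, 0, were 6 with the replicate block and 0 to 5 with 1 array left out, 5 of them without KO array 1; none was called higher under any alternative. The replicate block changed the call of no other gene among the 50. Of the other pathway genes, 1 called lower and 0 higher, the replicate block called 10 lower and 5 higher, and leaving out 1 array gave 0 to 8 lower and 0 to 4 higher, the most without KO array 1. The lower count was 0 with no filter, median scaling, the mean of all probe sets (1 higher, Fkbp9), the Gapdh covariate and the low-ratio arrays. The ERSE median lay between -0.23 and 0.37 and that of the 8 other folding genes between -0.61 and -0.12. Median scaling moved the median of all genes to -0.04, against 0.06 as deposited, and that of the 50 genes to -0.54, with 42 lower. The glycosylation median was -0.33 with the Gapdh covariate and -0.31 over the low-ratio arrays. The translocation median lay between -0.49 and -0.17 with 1 array left out, with -0.17 without KO array 2. Signs turned for genes near 0. Hspa5 was -0.0047 after median scaling, -0.081 with the mean of all probe sets, and -0.068 to 0.30 with 1 array left out. Rpn1 was 0.15 after quantile normalization and -0.35 to 0.22 with 1 array left out, and Sec63 was -0.43 to 0.20. The cause was not tested. Kdelr3 had no value under the 60th percentile filter. The median of the secretory pathway genes stayed below 0 under all 18 alternatives.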
